A study of Mus musculus with 16 samples.

Results

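The cytosolic ribosomal protein genes were followed in the brain cortex of 16 mice aged 5 months, with 1 polyadenylated RNA library per animal. They were chosen by name: rows of the count table typed as protein-coding whose symbol is Rpl or Rps with a number and an optional letter, Rplp0, Rplp1, Rplp2 or Rpsa. The rule found 81 of 55385 genes, 50 of the large ribosomal subunit and 31 of the small one. Another 3 rows matched by name but carried a different gene type and were left out (Rps4l, Rpl6l and Rpl32l). The rule also passes over 5 proteins of the cytosolic ribosome with other kinds of name (among them Fau, Rps3a1, Rack1 and the paralog Rpl22l1), which are given below as a list of their own together with Rps4l.

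There were 4 mice in each of 4 groups: wild-type (C57BL/6J), Dp16, 5xFAD, and animals with both alterations (5xFAD-Dp16). Dp16 mice carry an extra copy of the part of mouse chromosome 16 that matches most of human chromosome 21, and they model trisomy 21. In 5xFAD mice, human transgenes with mutations of familial Alzheimer disease are expressed from the Thy1 promoter, which is active mainly in neurons, so amyloid in this model comes from neuronal overexpression. The labels give C57BL/6J as the strain of the wild-type mice alone. Wild-type, Dp16 and 5xFAD mice were 2 males and 2 females each, whereas the 4 5xFAD-Dp16 mice were males. The comparisons ask what the duplication does alone and on the amyloid background, and what the transgenes do with and without the duplication.

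Each ribosome holds one copy of nearly every ribosomal protein, so their genes are made in matched amounts and are among the most abundant messages of any cell. Most of these messages begin with a terminal oligopyrimidine (TOP) tract, a C at the first base followed by a run of C and T, through which the mTOR kinase and the RNA-binding protein Larp1 set their translation. Surplus ribosomal proteins are degraded, and when assembly of the ribosome is disturbed free Rpl5 and Rpl11 bind Mdm2 and stabilise p53. In neurons, ribosomal protein messages are found in axons and dendrites as well as in the cell body, and their genes also carry many small nucleolar RNAs in their introns.

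The start sites of a few members are shown because the TOP tract is the sequence feature by which the family is known, and because these genes span the range of differences described below. Of the 81 members, 61 matched the RefSeq promoter table (GRCm38.p6). Each line gives 30 bases of the coding strand, 15 before the annotated start and 15 from it on. Capitals mark the unbroken run of C and T that begins at the start base, and all lower case means that the start base is A or G. The first 6 genes have a C at the start and C or T at the next 4 bases. The last 3 do not, and they are members with small differences in the comparison of 5xFAD-Dp16 with 5xFAD.

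Rps6: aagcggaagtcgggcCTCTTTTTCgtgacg
Rplp2: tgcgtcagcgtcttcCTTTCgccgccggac
Rps27: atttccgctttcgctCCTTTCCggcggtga
Rps18: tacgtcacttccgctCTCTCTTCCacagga
Rpl15: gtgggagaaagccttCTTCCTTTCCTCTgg
Rpl28: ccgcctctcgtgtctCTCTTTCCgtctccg
Rpl4: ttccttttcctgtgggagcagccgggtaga
Rps26: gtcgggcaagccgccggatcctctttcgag
Rpl36al: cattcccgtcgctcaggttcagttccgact

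The windows lie at chr4:86857353-86857382 (minus strand) for Rps6, chr7:141447636-141447665 (plus strand) for Rplp2, chr3:90213634-90213663 (minus strand) for Rps27 and chr17:33955651-33955680 (minus strand) for Rps18. Those of Rpl15, Rpl28 and Rpl4 lie at chr14:18270972-18271001 (minus strand), chr7:4792950-4792979 (plus strand) and chr9:64173372-64173401 (plus strand). Those of Rps26 and Rpl36al lie at chr10:128626492-128626521 and chr12:69184053-69184082, both on the minus strand. A full tract at the annotated start was found in 13 of the 61 members with a promoter (21.3%) and in 813 of all 27025 genes of the table (3.01%). The 13 were Rpl14, Rpl15, Rpl28, Rpl35, Rpl35a, Rpl38, Rplp2, Rps6, Rps10, Rps15a, Rps18, Rps21 and Rps27. Within 20 bases on either side of the start, a C followed by at least 6 C or T was present in 34 members (55.7%) against 21.4% of all genes. The start used in these cells was not measured, so the windows show annotated starts.

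Other short motifs were counted in the 300 bases from 250 before to 50 after each start, on both strands. CCGGAAG, the core bound by ETS and GABP factors, was in 25 members (41%) and in 9.93% of all genes. ATGGCGG, the core bound by YY1, was in 10 members (16.4%) against 4.69%, and GGGCGG, a GC box, was in 37 (60.7%) against 38.2%. TATAAA was in 6 members (9.84%) against 15.7% and CCAAT in 20 (32.8%) against 41.1%. A match is a run of letters and not a measured binding site.

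Members differed widely in level. Levels between genes are compared here per length, as RPKM, so their order depends on the gene lengths that those values imply. In counts not divided by length, summed over the 16 libraries, Rps24 was the highest (457850, against 395647 for Rplp1). Rplp0 (169298) then stood above Rplp2 (137040). Rplp1, an acidic protein of the stalk that recruits elongation factors, had the highest mean of the 16 libraries at 2883 ± 475 RPKM (SD, n = 16), followed by Rps15 at 1999.7 ± 485 and Rps21 at 1556. The other stalk proteins were lower, with Rplp2 at 474 RPKM and the stalk base Rplp0 at 454. At the other end stood members that have a ubiquitous partner: Rpl10l was at 0 counts in the 16 libraries, Rpl39l at a mean of 0.125 RPKM and Rpl3l at 0.253. Rpl10l and Rpl39l, paralogs known from the testis, did not pass the filter on low counts, so 79 members were tested (48 large, 31 small) among 17019 genes.

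Members lay on 19 chromosomes. Chromosome 16 holds 3 of them (Rpl35a, Rpl24 and Rpl39l), 0 members lie in the segment that Dp16 mice carry in extra copy, and 4 lie on the X chromosome (Rpl10, Rpl36a, Rpl39 and Rps4x). Ribosomal protein genes have many processed pseudogenes. The table lists 311 rows named as such, 219 of them with at least 1 count, and together they took 0.0193 to 0.0427% of a library. How reads that match several places were counted is not given in the sources used here, so values of members with near-identical copies are uncertain to that extent.

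Library totals ran from 12483286 to 20385010 counted reads. Mitochondrial genome transcripts took 7.71 to 10.99% of counts. Neuronal markers such as Snap25 were high in each library. Of the testis genes, Tnp1 and Prm1 were at 0 and Ddx4 at 0 to 4.82 CPM (counts scaled to a common library total, after TMM scaling). The summed choroid plexus markers reached 686 CPM in 5xFAD-Dp16 replicate 2 against 4.13 to 106 in the other libraries. Summed striatum markers were present in each library, from 388 CPM in 5xFAD-Dp16 replicate 1 to 787 in wild-type replicate 4. The part of choroid plexus or striatum in the results was not tested. Wild-type replicate 2 and 5xFAD replicate 3 correlated least with the other libraries.

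The 81 genes together took 3.18 to 6.90% of counts. In the wild-type libraries, replicates 1 to 4, the share was 5.24, 6.01, 4.78 and 3.18% (mean 4.80 ± 1.20, SD, n = 4). In Dp16 it was 4.90, 4.55, 3.78 and 5.00% (4.56 ± 0.554). In 5xFAD it was 4.26, 4.72, 6.90 and 5.44% (5.33 ± 1.15), and in 5xFAD-Dp16 it was 3.18, 4.05, 3.76 and 3.86% (3.71 ± 0.375). The 4 5xFAD-Dp16 libraries thus lay below the 4 5xFAD libraries with no overlap. They overlapped wild-type through its replicate 4, which was as low as the lowest of them, and they overlapped Dp16 through its replicate 3. The wild-type range of 3.18 to 6.01% spanned most of the range of the study. In bulk tissue, fewer cells rich in these messages and less of the message per cell cannot be told apart.

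**Figure D1:**
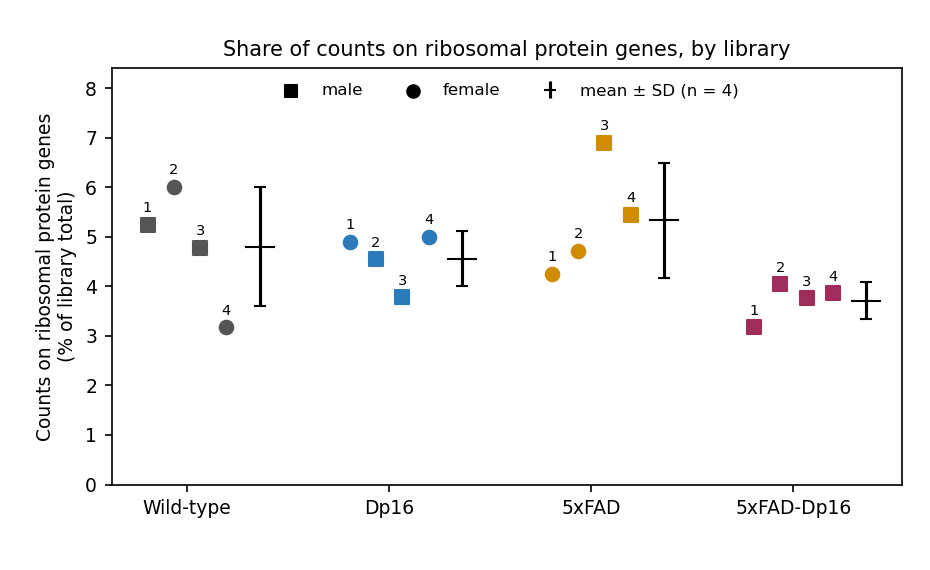
Share of each library's counts that fell on the 81 ribosomal protein genes (vertical axis, percent of the library total) for the 4 genotypes, 1 point per library with its replicate number, squares for males and circles for females, and the mean ± SD (n = 4) beside each group. The 5xFAD-Dp16 points lie between 3.18 and 4.05%, below the 5xFAD points, while wild-type spans 3.18 to 6.01%.

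The members moved together from library to library. Over the 78 members with a mean of at least 10 CPM, the first principal component of log2 CPM held 95.8% of the variance over the 16 libraries. In 5xFAD replicate 3, 79 of the 79 tested members were above their own mean over all libraries, with a median deviation of 0.79 on the log2 scale. In wild-type replicate 4, 0 of 79 were above it, with a median of -0.55, and 5xFAD-Dp16 replicate 1 had a median of -0.56. Large and small subunit genes kept nearly the same proportion, the ratio of their summed counts lying between 1.39 and 1.53 over the libraries. That ratio was 1.46 ± 0.058 in wild-type, 1.46 ± 0.025 in Dp16, 1.44 ± 0.036 in 5xFAD and 1.49 ± 0.014 in 5xFAD-Dp16 (SD, n = 4 each). The 5xFAD-Dp16 libraries, at 1.48 to 1.51, lay just above the 5xFAD libraries, at 1.39 to 1.47, without overlap, and both groups overlapped wild-type and Dp16.

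**Figure D2:**
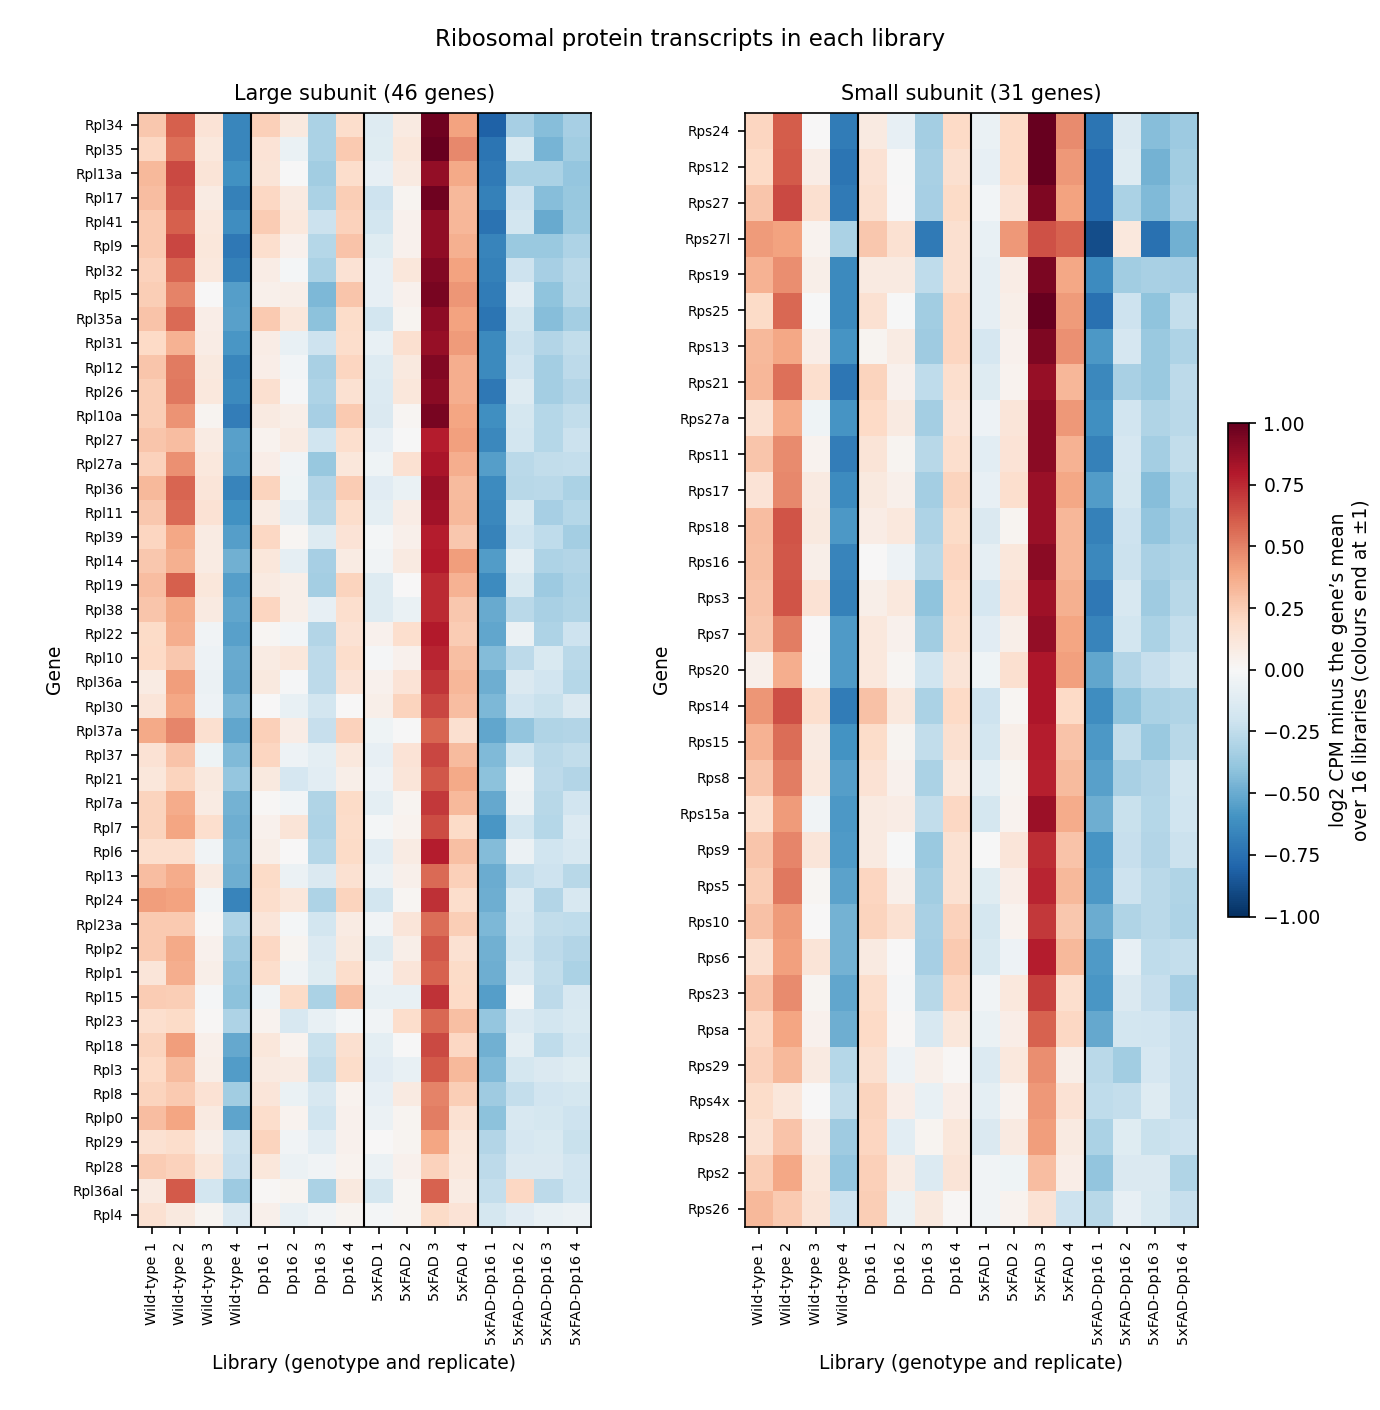
Deviation of log2 CPM from each gene's mean over the 16 libraries (colour, ending at ±1) for 77 of the members with a mean of at least 10 CPM, genes in rows ordered by their difference between 5xFAD-Dp16 and 5xFAD, libraries in columns. Most genes are high in 5xFAD replicate 3 (median deviation 0.79) and low in wild-type replicate 4 (-0.55) and 5xFAD-Dp16 replicate 1 (-0.56).

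These shifts ran alongside a trend with gene length across other genes. In each library, the deviation of the tested genes that are not members was correlated over genes with log2 gene length. Spearman's rho was -0.27, -0.36, -0.13 and 0.43 in wild-type replicates 1 to 4, -0.04, -0.14, 0.26 and -0.31 in Dp16, 0.22, 0.08, -0.46 and -0.23 in 5xFAD, and 0.45, 0.10, 0.35 and 0.20 in 5xFAD-Dp16. Libraries in which long genes were relatively high (a positive rho) had low values of the ribosomal protein genes, most of which have a short message, with the exception of 5xFAD replicate 2 (rho 0.08, median deviation 0.06). The points share libraries and depth, and the comparison is across genes, which are not independent replicates. All 4 5xFAD-Dp16 libraries had a positive rho, as did wild-type replicate 4, Dp16 replicate 3 and 5xFAD replicates 1 and 2. Each comparison below is therefore given a second time with a smooth trend of each library with gene length removed, fitted over the tested genes that are not members.

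**Figure D3:**
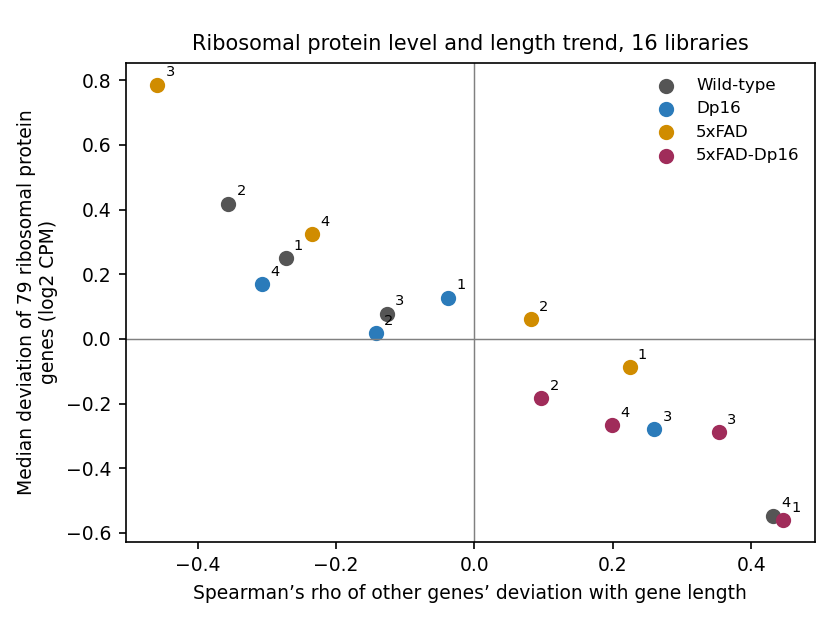
Median deviation of the 79 tested ribosomal protein genes (vertical axis, log2 CPM) against Spearman's rho between the deviation of all other tested genes and their length (horizontal axis), 1 point per library with its replicate number, coloured by genotype. The points run from 5xFAD replicate 3 (rho -0.46, median 0.79) to 5xFAD-Dp16 replicate 1 (rho 0.45, median -0.56).

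On the amyloid background, the ribosomal protein genes were lower with the duplication than without it. In 5xFAD-Dp16 against 5xFAD, 79 of 79 members had a negative difference, where 50.2% of all tested genes did, and the median was -0.69 on the log2 scale, or 0.619 of the 5xFAD level. The median of all tested genes was -0.002. The 4 libraries of each group did not overlap for 64 members, all lower, against 5.87% of all tested genes in that direction, and for 0 they were higher without overlap (5.59%). At an unadjusted p under 0.05, 74 members were lower (12% of all tested genes) and 0 were higher. After Benjamini-Hochberg adjustment over all 17019 genes, edgeR's quasi-likelihood test called 0 members and 0 genes of any kind (0% of those tested), the smallest adjusted p of a member being 0.155. DESeq2 called 43 of the 78 members to which it gave an adjusted p (6.49% of all genes with one). Small subunit genes had a median of -0.73 and large subunit genes one of -0.63.

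The call depends on the model. With only the libraries of the 2 groups in the fit, edgeR called 74 members (31.3% of all tested genes), and with male libraries alone it also called 74 (22.5% of all). Without the filter on low counts it called 68 (7.6% of all). The 2 male 5xFAD libraries are the ones with the highest share of ribosomal protein counts, and both of the former fits rest on them. Without 5xFAD replicate 3 the median was -0.44 (-0.53 when wild-type replicate 2 was left out as well), and with the length trend removed it was -0.29, with 72 members below 0, 55 of them at an unadjusted p under 0.05 (11.8% of all tested genes) and 0 past the threshold.

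Among the proteins of the stalk, the flexible arm of the large subunit on which translation factors land, Rplp1 (ENSMUSG00000007892.8, chr9:61913284-61914542) stood at 1549, 1828, 1483 and 1079 CPM in wild-type replicates 1 to 4 and at 1604, 1389, 1304 and 1605 in Dp16. In 5xFAD it stood at 1370, 1544, 2144 and 1622 CPM, and in 5xFAD-Dp16 at 1016, 1290, 1197 and 1140. The 5xFAD-Dp16 libraries were below every 5xFAD and every Dp16 library, while wild-type replicate 4 lay among them. The log2 difference from 5xFAD was -0.55 (SE 0.17, adjusted p = 0.155, edgeR). Rplp2, whose start carries the TOP tract shown above, had a mean of 567 ± 133 CPM in 5xFAD and 400 ± 33.5 in 5xFAD-Dp16 (log2 difference -0.55). Rplp0, the base on which the other two sit, had 688 ± 126 and 518 ± 40.6 (-0.47, SE 0.18, adjusted p = 0.164), so the 3 stalk genes differed by like amounts.

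Rpl5 (ENSMUSG00000058558.12, chr5:107900502-107909005) and Rpl11 enter the ribosome together with the small ribosomal RNA of the large subunit and bind Mdm2 when free. In 5xFAD-Dp16 against 5xFAD, both had a difference more negative than the member median of -0.69. Rpl5 was at 1026, 1220, 866 and 590 CPM in wild-type and at 893, 900, 634 and 1045 in Dp16. It was at 815, 891, 1669 and 1176 CPM in 5xFAD and at 531, 802, 655 and 713 in 5xFAD-Dp16. The highest 5xFAD-Dp16 library was just under the lowest 5xFAD library, and 5xFAD replicate 3 stood far above the other three. The log2 difference was -0.81 (SE 0.25, adjusted p = 0.155, edgeR). Rpl11 had 936 ± 280 CPM in 5xFAD and 588 ± 81.1 in 5xFAD-Dp16 (-0.73, adjusted p = 0.155).

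The most negative large subunit gene was Rpl34 (ENSMUSG00000062006.12, chr3:130726831-130730398). Its libraries read 410, 515, 373 and 217 CPM in wild-type and 400, 364, 273 and 385 in Dp16. They read 312, 362, 668 and 449 CPM in 5xFAD and 194, 269, 253 and 270 in 5xFAD-Dp16. All 4 5xFAD-Dp16 libraries were below all 4 5xFAD and all 4 Dp16 libraries, and wild-type replicate 4 again lay inside their range. The log2 differences were -0.93 from 5xFAD (SE 0.26, adjusted p = 0.155, edgeR), -0.63 from Dp16 and -0.71 from wild-type. Rpl41, which encodes the shortest protein of the ribosome, was close to it at 1256 ± 424 CPM in 5xFAD and 740 ± 118 in 5xFAD-Dp16 (-0.83). Other large subunit genes fixed for their role had smaller differences: Rpl10, which is added last and completes the peptidyl transferase centre, had -0.65, Rpl22 -0.65, Rpl23a, at the exit of the peptide tunnel, -0.56, and Rpl3, next to the peptidyl transferase centre, -0.51.

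Rpl4, which lines the peptide exit tunnel, had one of the smallest differences (ENSMUSG00000032399.8, chr9:64173375-64178666). It was at 875, 843, 804 and 713 CPM in wild-type and at 817, 749, 767 and 805 in Dp16. It was at 776, 799, 901 and 866 CPM in 5xFAD and at 699, 727, 750 and 756 in 5xFAD-Dp16. The last 2 groups did not overlap, but the gap was small, with a log2 difference of -0.22 (SE 0.11, adjusted p = 0.225, edgeR). Its residual SD about the fitted values, 0.0888 on the log2 scale, was the smallest of the members with at least 10 CPM, followed by Rpl28 (0.135) and Rpl29 (0.153). The largest were those of Rps12 (0.416), Rpl17 (0.415) and Rps24 (0.413).

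In the small subunit, Rps24 (ENSMUSG00000025290.17, chr14:24487125-24496959) had the most negative difference of the members. It was at 1863, 2449, 1614 and 989 CPM in wild-type and at 1711, 1519, 1267 and 1842 in Dp16. It was at 1531, 1841, 3389 and 2226 CPM in 5xFAD and at 968, 1452, 1196 and 1247 in 5xFAD-Dp16. The 5xFAD libraries lay above the 5xFAD-Dp16 libraries without overlap, and 5xFAD replicate 3 was the highest of the 16. The log2 difference was -0.94 (SE 0.27, adjusted p = 0.155, edgeR), and without 5xFAD replicate 3 it was -0.60. Rps12 was next, at 1013 ± 356 CPM in 5xFAD and 554 ± 101 in 5xFAD-Dp16 (-0.93).

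Rps19 (ENSMUSG00000040952.16, chr7:24884371-24889806), the gene most often mutated in Diamond-Blackfan anaemia, had the smallest unadjusted p of the members. Its values were 470, 510, 385 and 237 CPM in wild-type and 393, 393, 310 and 413 in Dp16. They were 347, 388, 709 and 483 CPM in 5xFAD and 238, 291, 294 and 293 in 5xFAD-Dp16. The 5xFAD-Dp16 libraries were the lowest of the study together with wild-type replicate 4. The log2 difference from 5xFAD was -0.88 (SE 0.23, adjusted p = 0.155, edgeR). Rps14, whose loss causes the anaemia of the 5q- syndrome in humans, had 738 ± 239 CPM in 5xFAD and 466 ± 45.4 in 5xFAD-Dp16 (-0.73).

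Of the other small subunit genes fixed for their role, Rps27, a zinc-finger protein with a TOP tract at its start, had -0.92, and Rps27a, which is made as a fusion with ubiquitin, had -0.80. Rps3, at the entry of the messenger RNA channel, had -0.77, and Rps6, the substrate of S6 kinase downstream of mTOR, had -0.61 (928 ± 289 against 634 ± 85.9 CPM). Rpsa, also known as the laminin receptor, had -0.53, Rps29 -0.44, the X-linked Rps4x -0.41 and Rps2 -0.35. Rps26 (ENSMUSG00000025362.6, chr10:128624534-128626747), near the exit of the messenger RNA channel, had the difference closest to 0. Wild-type libraries were at 346, 332, 302 and 240 CPM, Dp16 libraries at 328, 264, 295 and 278. It was at 269, 284, 306 and 240 CPM in 5xFAD and at 228, 261, 249 and 235 in 5xFAD-Dp16. The last 2 groups overlapped, the log2 difference was -0.18 (SE 0.14, adjusted p = 0.420, edgeR), and with the length trend removed it was 0.26. Relative to the median member of the same library, Rps26 was thus the member that varied most (SD 0.276 on the log2 scale over 16 libraries), followed by Rpl4 (0.259) and Rps27l (0.256).

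Rps26, Rpl4, Rpl36al and Rpl3l were among the 5 members that missed an unadjusted p of 0.05 in this comparison. Differences with and without the start tract covered nearly the same range. The split rests on annotated starts, so it cannot separate TOP messages from others. The 13 members with a full tract had a median difference of -0.69, with a range from -0.92 to -0.30, and the 46 tested members with a RefSeq start but no tract had a median of -0.70, from -0.94 to -0.18. GC content of the messages ran from 41.3 to 60.8%. The 39 members with the lower GC content had a median of -0.73 and the other 40 one of -0.66.

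Members were also set beside other protein-coding genes of the same length. For genes under 1 kb, the median difference was -0.69 over 39 members and -0.53 over 553 other protein-coding genes. From 1 to 2 kb it was -0.69 over 31 members and -0.27 over 2553 others, and from 2 to 4 kb it was -0.62 over 8 members and 0.006 over 5562 others. The 1 member over 4 kb, Rps15a (5395 bases), had -0.69, while 5668 other genes had a median of 0.27. Members under 1 kb were thus nearer to other genes of their length than members of the longer classes were. Over the members, the difference had a Spearman's rho of 0.075 with log2 length, against 0.45 over the other tested genes. Lengths are those implied by the deposited RPKM, and the length of the message in these cells was not measured. A member may therefore stand in a longer class than its message, and removal of the length trend may then correct it too little or too much. The medians are over genes and carry no test.

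**Figure D4:**
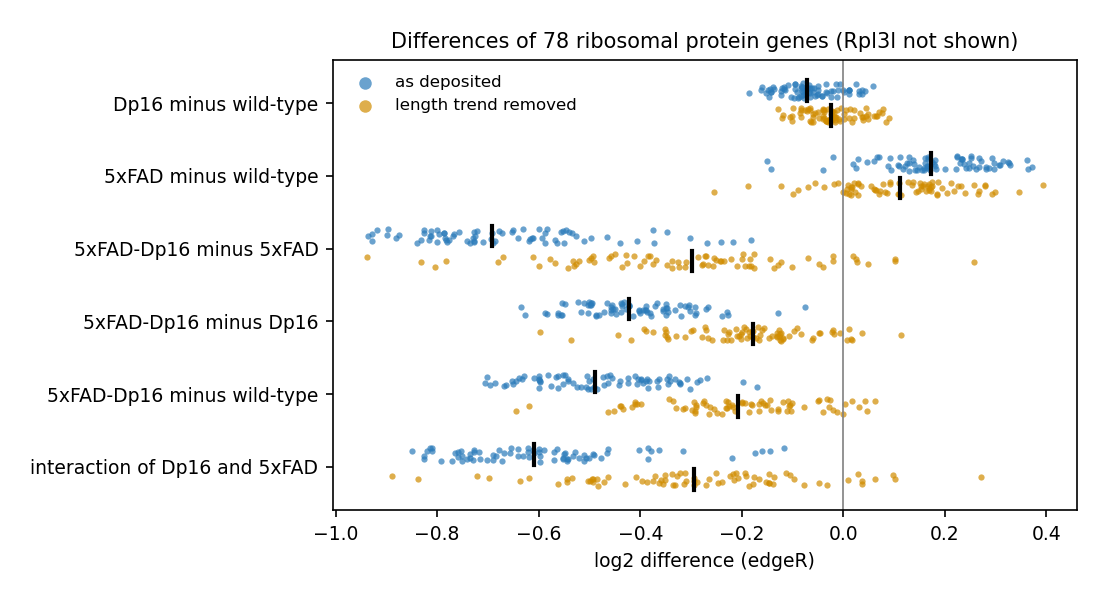
Log2 differences from edgeR (horizontal axis) of 78 ribosomal protein genes in 6 comparisons (rows, 1 point per gene, vertical bars at the medians), as deposited in blue and with the length trend of each library removed in orange. Rpl3l, with under 1 CPM on average, is not shown. In 5xFAD-Dp16 against 5xFAD the members lie between -0.94 and -0.18, and their median is -0.69 before and near -0.29 after the trend is removed.

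With the duplication alone, differences were small. In Dp16 against wild-type, 66 of 79 members were lower (49.6% of all tested genes), with a median of -0.07. EdgeR called 0 members (0.0176% of all tested genes), and so did DESeq2 (0.206% of all). At an unadjusted p under 0.05 there were 0 lower (1.4% of all) and 1 higher (2.48%), the latter being Rpl3l, and 0 were lower without overlap (0.852%). Rpl3l passed the filter on low counts through libraries outside wild-type. Its place above wild-type, here and below, is therefore partly set by that filter. With the length trend removed the median was -0.02, and 0 members were lower at an unadjusted p under 0.05 (1.85%). The most negative members were Rpl13a (-0.19, SE 0.23), Rps16 (-0.16) and Rpl11 (-0.16), and after Rpl3l the most positive were Rps4x (0.06) and Rpl37 (0.04). Rpl13a, Rps16 and Rpl11 each differed by less than 1 standard error, and the median was 0.15 without wild-type replicate 2 and -0.23 without wild-type replicate 4.

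With the transgenes alone, most members stood slightly higher. In 5xFAD against wild-type, 4 of 79 members were below 0 (47.9% of all tested genes) and 75 above, with a median of 0.18. EdgeR called 0 members (0.176% of all tested genes) and DESeq2 also called 0 (1.38%). At an unadjusted p under 0.05, 1 member was higher (5.22%) and 0 were lower (5.53%), and libraries did not overlap for 1 higher member (2.8%) and 0 lower ones (2.68%). The single member was Rpl3l in both cases, whose place above wild-type is partly set by the filter. Rps27a (0.37, SE 0.21, adjusted p = 0.538, edgeR) and Rps20 (0.36) had the largest differences after Rpl3l, and Rps26 (-0.15) and Rps2 (-0.04) were among the 3 most negative ones. Without 5xFAD replicate 3 the median was 0.005 and without wild-type replicate 2 it was 0.39, so single libraries set its size. With the length trend removed the median was 0.11, and edgeR called 0 members (35 of all tested genes). The unadjusted p was then under 0.05 for 10 members, 0 of them lower (7.2% of all tested genes were lower). The share of all genes that were higher by that measure was not counted.

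The mice with both alterations were also compared with Dp16 and with wild-type. These comparisons share the 5xFAD-Dp16 libraries with the one above and with each other. Against Dp16, 78 of 79 members were lower (48.4% of all tested genes), with a median of -0.42, and 22 members had libraries that did not overlap (2.61% of all). At an unadjusted p under 0.05, 18 were lower (2.63% of all) and 0 higher (2.67%). EdgeR called 0 members (0.0176% of all) and DESeq2 called 0 (0.147%), and edgeR without the filter on low counts called 2 (0.154%). The most negative were Rpl41 (-0.63, SE 0.26, adjusted p = 0.758, edgeR), Rpl34 (-0.63) and Rpl17 (-0.59). With the length trend removed the median was -0.18, with 13 members lower at an unadjusted p under 0.05 (2.29% of all).

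Against wild-type, 78 of 79 were lower (47.6% of all tested genes), with a median of -0.49. At an unadjusted p under 0.05, 52 were lower (5.12% of all) and 1, Rpl3l, was higher (5.25%). For 0 members did the libraries not overlap (1.61% of all lower, 2.37% higher), since wild-type replicate 4 was as low as the 5xFAD-Dp16 libraries. EdgeR called 0 members (0.047% of all) and DESeq2 called 0 (0.623%), whereas edgeR without the filter on low counts called 27 (1% of all). Rpl34 (-0.71, SE 0.26, adjusted p = 0.449, edgeR), Rps27 (-0.70) and Rps14 (-0.70) were the most negative. With the length trend removed the median was -0.20, with 27 members lower at an unadjusted p under 0.05 (4.34% of all).

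The interaction asks whether the effect of the duplication differed between the amyloid background and the wild-type background. It was negative for 79 of 79 members (50.8% of all tested genes), with a median of -0.61. The unadjusted p was under 0.05 for 33 lower members (4.77% of all) and 0 higher ones (4.58%). EdgeR called 0 members (0% of all) with a smallest adjusted p of 0.522, DESeq2 called 0 (0.143%), and edgeR without the filter on low counts called 19 (1.19%). The median was -0.29 with the length trend removed and -0.35 without 5xFAD replicate 3. Rpl34 (-0.85, SE 0.35, adjusted p = 0.522, edgeR) and Rps27a (-0.83) were among the most negative after Rpl3l, and Rps26 (-0.12) was the closest to 0.

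Sex was a term of the model because the 5xFAD-Dp16 mice were males. In males against females, 2 of 79 members were below 0 (51.1% of all tested genes) and 77 above. The median was 0.14, and 0.04 with the length trend removed. EdgeR called 0 members (0.0353% of all tested genes), and at an unadjusted p under 0.05 0 were lower (2.56%) and 0 higher (1.47%). That difference comes from the other 3 genotypes, since there was no 5xFAD-Dp16 female, and a sex difference within 5xFAD-Dp16 was not tested. Without the sex term the median of 5xFAD-Dp16 against 5xFAD was -0.64. The X-linked members lay within the range of the others: Rpl10 had 0.16, Rps4x 0.11, Rpl39 0.15 and Rpl36a 0.06.

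Several members come in pairs with a close relative, and in each pair 1 copy carried most of the counts. Rpl3l, the striated muscle paralog of Rpl3, was at 0, 4, 0 and 2 counts in wild-type, 7, 2, 9 and 23 in Dp16, 14, 8, 11 and 9 in 5xFAD and 12, 4, 5 and 4 in 5xFAD-Dp16. Wild-type replicates 1 and 3 had no read, while wild-type replicate 2, at 0.330 CPM, was above replicates 2 to 4 of 5xFAD-Dp16 and replicate 2 of Dp16. With so few reads the fitted log2 differences of 2.50 for Dp16 and 2.96 for 5xFAD against wild-type (adjusted p = 0.267 for the latter, edgeR) depend on the prior count. They also depend on the filter on low counts, which Rpl3l passed through libraries outside wild-type. Rpl39l was at 0 to 11 counts per library, and its highest value was in 5xFAD replicate 1. Its partner Rpl39 had 208 ± 56.5 CPM in 5xFAD and 131 ± 17.9 in 5xFAD-Dp16, a log2 difference of -0.73.

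Rpl36a and its retrogene Rpl36al behaved differently from each other in 5xFAD-Dp16 against 5xFAD, though the difference between them was not tested. Rpl36a, on the X chromosome, had 292 ± 63.4 and 192 ± 19.8 CPM (-0.63, SE 0.19). Rpl36al (ENSMUSG00000049751.6, chr12:69182731-69184083) was at 46.3, 53.1, 78.8 and 55.5 CPM in 5xFAD and at 44.4, 60.4, 43.6 and 45.6 in 5xFAD-Dp16. These overlapped through 5xFAD-Dp16 replicate 2, and the log2 difference was -0.27 (SE 0.22, adjusted p = 0.456, edgeR).

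Rps27l, a p53-induced relative of Rps27, was at 24.8, 24.4, 18.9 and 14.8 CPM in wild-type and at 22.2, 20.5, 11.2 and 20.6 in Dp16. It was at 17.5, 24.9, 28.7 and 27.9 CPM in 5xFAD and at 9.94, 19.9, 10.97 and 13.2 in 5xFAD-Dp16. The lowest 5xFAD library lay below the highest 5xFAD-Dp16 library. The log2 difference was -0.90 (SE 0.27, adjusted p = 0.155, edgeR), close to that of Rps27 itself.

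Proteins of the ribosome whose names fall outside the rule had like values, apart from Rps4l. In 5xFAD-Dp16 against 5xFAD the 6 genes had a median of -0.71, 5 of them lower at an unadjusted p under 0.05 (12% of all tested genes), with Fau, a ubiquitin-like fusion that yields a small subunit protein, at -0.80 (625 ± 182 against 375 ± 48.7 CPM), Rpl22l1 at -0.77, Rack1 at -0.72, Rps3a1 at -0.70 and Rps4l at -0.18. The small nucleolar RNA host genes, whose transcripts also begin with TOP tracts, had a median of -0.79 with 6 of 6 lower. Among them Snhg1 was at 17.8 ± 9.03 and 7.64 ± 1.86 CPM (-1.38, SE 0.34) and Gas5 at 223 ± 50.2 and 149 ± 14.2 (-0.62). None of these genes passed the threshold with edgeR.

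Translation factors with TOP tracts were divided. Of 20, 13 were lower and 7 higher in 5xFAD-Dp16 against 5xFAD, with a median of -0.46, and 0 passed the threshold with edgeR (11 lower and 2 higher at an unadjusted p under 0.05, against 12% and 11.8% of all tested genes). Eef1b2, a subunit of the exchange factor of elongation factor 1, had -0.74 and Naca, of the nascent chain-associated complex, -0.71. Eef1a1, which delivers aminoacyl-tRNA, had -0.44 (7283 ± 1174 against 5538 ± 597 CPM). In contrast, Eef2, which moves the ribosome along, had 0.33, Eif4b 0.45 and Pabpc1, the poly(A)-binding protein, 0.42.

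In the counts as deposited, the machinery that makes ribosomes had medians nearer to 0 than the ribosomal proteins. The 42 ribosome biogenesis genes had a median of -0.14 in 5xFAD-Dp16 against 5xFAD (31 lower, 10 of them at an unadjusted p under 0.05, against 12% of all tested genes), with Gnl3 at -0.80 and Emg1 at -0.70. The 12 genes of RNA polymerase I and its factors, which make ribosomal RNA, had a median of -0.13, with Taf1d at -1.06 and Polr1a at 0.86. The 31 genes of the mTOR pathway and translation control had a median of 0.17 (20 higher). With the length trend removed, the medians were -0.16 for biogenesis, -0.21 for RNA polymerase I and 0.07 for mTOR. That of the ribosomal proteins was then -0.29. Whether these lists differ from the ribosomal proteins was not tested. Larp1, the repressor of TOP messages, stood at 23.3 ± 7.56 CPM in 5xFAD and 36.4 ± 13.7 in 5xFAD-Dp16 (0.90, SE 0.35, adjusted p = 0.164, edgeR), and Eif4ebp2, an mTOR-controlled repressor of cap-dependent translation, at 12.1 ± 6.04 and 18.3 ± 7.20 (1.03, SE 0.41, adjusted p = 0.167). The fitted differences include the sex term, which the means do not. Both are without removal of the length trend, and other protein-coding genes over 4 kb had a median of 0.27 in that fit. The part of gene length in these 2 differences was not tested.

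In the counts as deposited, stress readouts showed no common direction. The integrated stress response targets had a median of 0.10 over 11 tested genes, with Sesn2 at 0.60 and Psat1 at -0.52. The 9 p53 targets tied to ribosome stress had a median of -0.05, with Eda2r at 0.89 and Zmat3 at 0.74, and Mdm2 itself at -0.52 (87.0 ± 8.63 against 63.0 ± 8.21 CPM, adjusted p = 0.155, edgeR). With the length trend removed, the medians were 0.30 for the integrated stress response targets and 0.04 for the p53 targets. In these 2 lists and in those of biogenesis, RNA polymerase I and mTOR, edgeR called 0 genes in this comparison. Counts lower and higher at an unadjusted p under 0.05 were 3 and 1 for the integrated stress response, 4 and 2 for p53, 3 and 1 for RNA polymerase I and 3 and 5 for mTOR, where 12% of all tested genes were lower and 11.8% higher by that measure.

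Mitochondrial ribosomal proteins and respiratory chain subunits, encoded in the nucleus, also stood lower. Of 77 tested mitochondrial ribosomal protein genes, 72 were lower in 5xFAD-Dp16 against 5xFAD, with a median of -0.49, and of 80 tested nuclear oxidative phosphorylation genes 73 were lower, with a median of -0.57. Of the former 44, and of the latter 54, were lower at an unadjusted p under 0.05 (12% of all tested genes), and edgeR called 0 genes of either list. In the other comparisons edgeR also called 0 genes of the 10 lists. Mrpl33 (-0.88) and Atp5md (-0.94) had the largest differences of their lists. With the length trend removed, the medians were -0.21 for mitochondrial ribosomal proteins, -0.18 for oxidative phosphorylation and -0.29 for cytosolic ribosomal proteins. Whether the 3 families differ from each other was not tested.

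**Figure D5:**
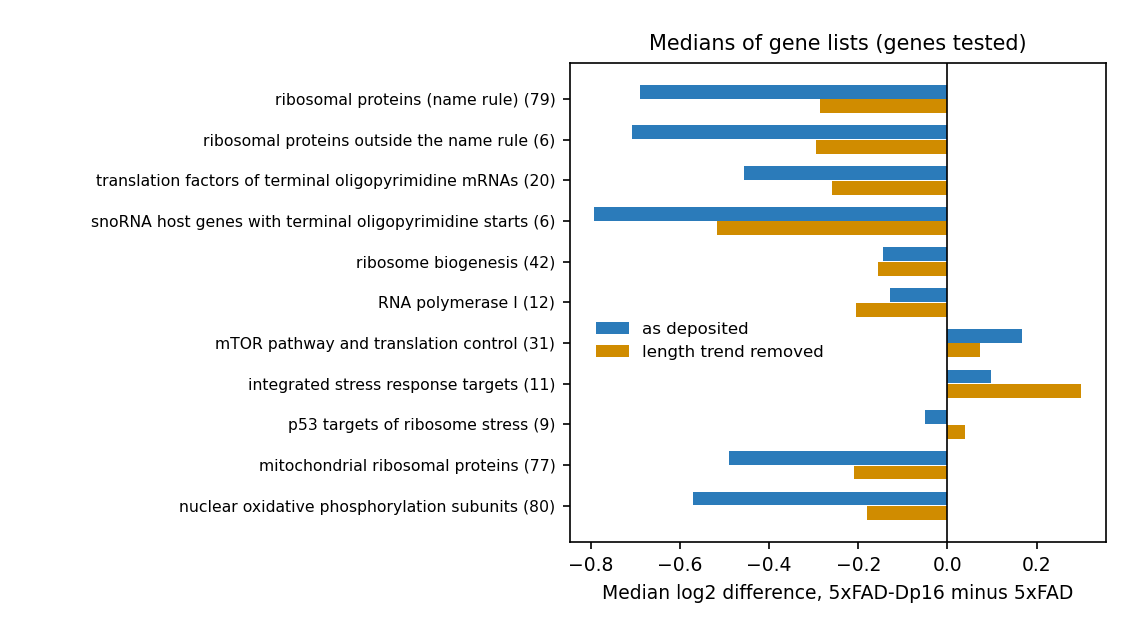
Median log2 difference between 5xFAD-Dp16 and 5xFAD (horizontal axis) for the ribosomal protein genes and 10 related gene lists (rows, with the number of genes tested), as deposited in blue and with the length trend removed in orange. Bars start at 0. The ribosomal proteins (-0.69), those outside the name rule (-0.71) and the small nucleolar RNA hosts (-0.79) lie farthest to the left, while the mTOR list lies at 0.17.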

How the data were processed

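Per the labels' protocols, RNA was taken from cortex with TRIzol and made into strand-specific poly(A)-selected libraries that were read as pairs. The submitters' processing notes name bcl2fastq, FastQC 0.11.5, HISAT2 2.1.0, SAMtools 1.5 and HTSeq 0.6.1 with genome build GRCm38. The strand setting and the treatment of reads with several matches are not given in the sources used here. The authors deposited raw counts per gene, which were used as they stand. RPKM values deposited by the authors served for levels per length and for gene lengths, and they followed from count, length and total within 0.1% for 100% of genes checked. Coordinates came from Gencode M21 by gene identifier (81 of 81 members matched, on the same chromosome).

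Genes passing edgeR's filterByExpr were scaled by TMM (factors 0.899 to 1.04) and fitted over all 16 libraries with a mean per genotype and a sex term, using robust quasi-likelihood in edgeR 4.0.16 with R 4.3.3. The biological coefficient of variation was 0.266. Tests were two-sided, adjusted by Benjamini-Hochberg over the tested genes, with 0.05 as the threshold. Every adjusted p comes from this test unless another is named. CPM are counts scaled to a common total after TMM, and log2 CPM used a prior count of 2. A residual SD is that of log2 CPM about the fitted group and sex means. The length trend was a lowess curve with a span of 0.3, used as an offset. Each library was labelled as 1 animal, and no 2 libraries of a group agreed within sampling noise. The fit was also tested on simulated data without a length trend, with changes placed in 5xFAD-Dp16. In 5xFAD-Dp16 against 5xFAD it recovered 10.4% of genes changed 1.5-fold, 34.3% of those changed 2-fold and 78.8% of those changed 4-fold. Of 84 calls, 2 were false. A count of 0 called genes therefore does not show that differences of this size were absent.

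Named genes were members fixed for their role, the 3 most positive and 3 most negative per comparison, those past the threshold, the 3 highest and lowest by RPKM, the 3 most and least variable with at least 10 CPM, and the 2 largest differences per related list. A few genes that these rules name are not reported here. Rps15a, the promoter examples and other genes of the related lists were chosen after their values were seen. The members and lists were chosen with earlier results of these data known. Alternatives were DESeq2 1.42.0, no filter, unscaled totals, no sex term, males only, only the 2 groups compared, the length trend removed, a replicate block and each library left out. Removal of a length and a GC trend, and leaving out both libraries that stand apart, were chosen after seeing the data.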

Additional observations from a re-analysis of the deposited data

Results flagged for a closer look

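In 128 groups of 4 libraries, 5 held a library far from the other three, and chance flags about 1 in 20 groups. In Dp16, Rps27l was at 11.2 CPM in 1 library (replicate 3) and at 20.5 to 22.2 in the others. In 5xFAD-Dp16, Rpsa was at 808 CPM in replicate 1 against 979 to 1014, and Rps19 at 238 CPM in replicate 1 against 291 to 294. Rpl3l was at 0.574 CPM in the same library against 0.220 to 0.261, which rests on 12 counts. Rpl36al was at 60.4 CPM in 5xFAD-Dp16 replicate 2 against 43.6 to 45.6 in the others.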

How the results depend on the processing

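Members called by edgeR in 5xFAD-Dp16 against 5xFAD were 0, and the alternatives gave 43 (DESeq2), 68 (no filter on low counts), 74 (males only) and 74 (only the 2 groups). No filter also gave 2 members against Dp16, 27 against wild-type and 19 in the interaction, from 0. In every other setting run, leaving out each library included, 0 were called. With the length trend removed the medians were -0.29 in 5xFAD-Dp16 against 5xFAD and -0.29 in the interaction.

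Leaving out each library in turn, the medians ran from -0.23 to 0.15 in Dp16 against wild-type, 0.005 to 0.39 in 5xFAD against wild-type, -0.75 to -0.44 in 5xFAD-Dp16 against 5xFAD, -0.59 to -0.35 against Dp16, -0.61 to -0.36 against wild-type, and -0.89 to -0.35 in the interaction. Without both libraries that stand apart, the first was 0.12 and the third -0.53.

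Shared replicate numbers did not pair the samples: same-numbered libraries correlated at -0.36 to 0.32, 5 of 24 pairs were over 0.1, and 1 of 16 libraries was closest to its own number. With the replicate block, 0 members were called and the medians were -0.05, 0.19, -0.69, -0.43, -0.47 and -0.63 in the order above. Genes called with the block were 0, 20, 0, 2, 3 and 0, from 3, 30, 0, 3, 8 and 0.

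Counts over all genes moved more. DESeq2 called 35, 234, 740, 25, 106 and 21 genes, no filter 43, 235, 2215, 45, 292 and 346, and males only 0, 5, 3956, 3, 2 and 0. The length trend removed gave 16, 35, 4, 3, 12 and 0, length and GC removed 22, 32, 13, 3, 26 and 0, no sex term 3, 29, 16, 3, 14 and 0, and unscaled totals 1, 26, 1, 3, 11 and 0. Without both libraries that stand apart they were 1, 18, 0, 5, 6 and 0. The 2 groups alone gave 0, 7, 5020, 5 and 0 in the 5 comparisons of groups, and leaving out 1 library gave 0 to 2, 16 to 26, 0 to 3, 2 to 4, 3 to 21, and 0 to 1. The causes were not tested.

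Of the named differences, 50 values changed sign. In Dp16 against wild-type, males alone gave -0.13 for Rpl37 and -0.11 for Rps4x, and without both libraries that stand apart Rpl13a was at 0.069, Rpl11 at 0.058 and Rps16 at 0.095. Leaving out 1 library they ran from -0.088 to 0.20, -0.022 to 0.13, -0.39 to 0.11, -0.36 to 0.10 and -0.36 to 0.14. In 5xFAD against wild-type, Rps2 was at 0.048 with length and GC trends removed and 0.0092 without both libraries, and ran from -0.19 to 0.083.

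In 5xFAD-Dp16 against 5xFAD, the length trend removed gave 0.019 for Rpl4, 0.26 for Rps26, 0.10 for Rps29 and 0.027 for Rpl36al. Length and GC removed gave 0.11 for Rpl4, 0.33 for Rps26, 0.063 for Rps4x, 0.029 for Rps29, 0.0033 for Rpl36al and 0.024 for Rpl36a. Rpl3l ran from -0.85 to 0.057. Against Dp16, Rpl3l was at -0.77 with no sex term and Rpl36al at 0.017 in males and at 0.017 in the 2 groups alone. Length removed gave 0.036 for Rpl4 and 0.11 for Rpl36al, and length and GC 0.055 and 0.11. Rpl3l ran from -0.37 to 0.52 there.

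Against wild-type, length removed gave 0.042 for Rpl36al and 0.018 for Rpl4, length and GC 0.030 and 0.048, and without both libraries Rpl36al was at 0.0082. In the interaction, Rps26 was at 0.068 in males, 0.27 with length removed and 0.34 with length and GC removed. Rpl36al was at 0.099 with length removed and, with GC too, 0.081. Leaving out 1 library, Rpl36al ran from -0.47 to 0.11 and Rps26 from -0.21 to 0.043. The other named differences kept their sign, and 96 values passed the threshold under an alternative. Counting limits the precision of Rpl3l alone among tested members, since the others had at least 10 CPM on average.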

Other observations

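Within each library the members kept to one another more closely than the libraries did. The SD of the deviations among members lay between 0.0586 and 0.208 on the log2 scale in a single library, while the SD of the library medians within genotypes was 0.313. The second principal component held 1.28% of the variance. Relative to the median member, Rps26 stood at -0.28 in 5xFAD and 0.14 in 5xFAD-Dp16, and Rpl4 at -0.19 and 0.22, as group means of log2 CPM. These are values with no test.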
